A study of Mus musculus with 8 samples.

Results

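A set of 7 genes for vascular leukocyte adhesion molecules was followed through endothelial cells of mouse mesentery and epididymal adipose tissue: Selp, Sele, Icam1, Icam2, Vcam1, Madcam1 and Glycam1. They were chosen by symbol from the gene list of the second sequencing run, matched to the first run by gene identifier, and make up 7 of the 30406 genes shared by both runs. The cells were sorted for yellow fluorescent protein (YFP) from males of the genotype ROSA26-eYFP+/+ Cdh5-CreERT2+, where the Cdh5 promoter, active in endothelium, drives a tamoxifen-dependent Cre recombinase that turns the reporter on. Every group shares this genotype and 2 weeks of tamoxifen diet that began at 6 weeks of age. Normal chow with 5.8% fat, or high fat diet (HFD) with 60% fat, was fed from the age of 8 weeks and lasted 12 to 13 weeks. The groups, 4 in all, were mesentery and epididymal adipose tissue on either diet. Each library pooled the tissue of 6 mice, and the experiment was carried out in 2 runs, called A and B, so that every group has 1 library in each run and n = 2 pools. Tissue was kept in actinomycin D, a blocker of transcription, during dissection and digestion. Sorted cells went into droplets for 3' single-cell RNA sequencing, in which every captured transcript is tagged with a unique molecular identifier (UMI).

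Circulating leukocytes leave the blood in steps. Selectins on the vessel wall, P-selectin (Selp) and E-selectin (Sele), slow the cells into rolling, and immunoglobulin-family ligands then bind leukocyte integrins for arrest and crawling: ICAM-1 and ICAM-2 bind LFA-1, and VCAM-1 binds VLA-4. MAdCAM-1 (Madcam1) binds the gut-homing integrin alpha4 beta7, and GlyCAM-1 (Glycam1) is a secreted mucin that carries ligands for L-selectin in high endothelial venules, the vessels through which lymphocytes enter lymph nodes. Venules are the usual site of leukocyte exit, and Sele, Vcam1, Icam1 and Selp of the mouse are textbook genes of the endothelial response to inflammatory cytokines through NF-kB.

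The deposited tables hold raw UMI counts. Libraries of run A had 1352 to 2780 barcodes and 3461360 to 6714473 UMIs, and those of run B had 3189 to 6218 barcodes and 18829960 to 36779289 UMIs. The share of barcodes above 10% mitochondrial counts was 22.8 to 30.8% in run A and 5.4 to 9.0% in run B. Depth and mitochondrial share thus moved with the run. At most 10 barcode sequences (0.31% of the smaller library) were shared by any pair of libraries. After filters and removal of called doublets, 23207 cells fell into 31 clusters, built without the 7 genes. The endothelial label held for 21 clusters with 19277 cells, in which all 8 defining endothelial markers were found in every library, and 70.3 to 90.5% of each library was endothelial. The remaining sorted cells included T cell-like, B cell-like, macrophage-like, fibroblast-like and, in adipose, mural-like cells. By markers, 2673 cells were venous-like, 2708 arterial-like, 4273 capillary-like and 2227 lymphatic-like, and 12 endothelial clusters stayed unnamed. Levels are given as CPM, the gene's UMIs scaled to all UMIs of a class in a library. They compare 1 gene between samples and not genes with each other.

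The genes lie on 6 chromosomes of the mm10 build. Sele (chr1:164048234-164057677, plus strand) and Selp (chr1:164115264-164150026, plus strand) are neighbours, 57586 bp apart. Icam1 lies at chr9:21015985-21028817 on the plus strand, Icam2 at chr11:106377656-106388075 on the minus strand and Vcam1 at chr3:116109949-116129688 on the minus strand. Madcam1 lies at chr10:79664559-79668537 on the plus strand and Glycam1 at chr15:103562759-103565081 on the minus strand.

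Promoter sequence was available for 5 of the 7 genes, from RefSeq on GRCm38.p6, as 250 bases before to 50 bases after the annotated start. The 5 windows are shown because Selp, Sele and Icam1 differed together between the runs, whereas Madcam1 and Glycam1 shared another, tissue-bound pattern. Capitals mark 3 letter strings searched on both strands: TATAAA (a core promoter element), GGNNNTTCC (an NF-kB-type string) and TGANTCA (an AP-1-type string). Over all 32851 promoters of the same length, 13.62% held the core promoter element, 18.48% the NF-kB-type string and 7.808% the AP-1-type string.
Selp: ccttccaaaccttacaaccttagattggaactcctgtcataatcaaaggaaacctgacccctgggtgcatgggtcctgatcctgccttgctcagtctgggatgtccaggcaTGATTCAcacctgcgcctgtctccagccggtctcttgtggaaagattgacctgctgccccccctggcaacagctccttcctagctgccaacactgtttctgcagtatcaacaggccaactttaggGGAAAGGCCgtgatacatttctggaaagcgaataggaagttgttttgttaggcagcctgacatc
Sele: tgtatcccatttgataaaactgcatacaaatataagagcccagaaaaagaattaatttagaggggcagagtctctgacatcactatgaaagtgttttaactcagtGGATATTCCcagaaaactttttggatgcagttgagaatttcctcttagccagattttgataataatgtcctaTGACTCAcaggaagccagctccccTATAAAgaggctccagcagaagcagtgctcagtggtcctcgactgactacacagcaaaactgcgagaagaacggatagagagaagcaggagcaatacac
Icam1: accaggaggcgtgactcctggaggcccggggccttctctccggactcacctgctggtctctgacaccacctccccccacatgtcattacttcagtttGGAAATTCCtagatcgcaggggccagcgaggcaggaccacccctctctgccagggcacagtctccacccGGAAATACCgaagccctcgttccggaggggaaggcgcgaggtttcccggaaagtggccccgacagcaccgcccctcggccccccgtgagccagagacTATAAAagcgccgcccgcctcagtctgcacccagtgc
Madcam1: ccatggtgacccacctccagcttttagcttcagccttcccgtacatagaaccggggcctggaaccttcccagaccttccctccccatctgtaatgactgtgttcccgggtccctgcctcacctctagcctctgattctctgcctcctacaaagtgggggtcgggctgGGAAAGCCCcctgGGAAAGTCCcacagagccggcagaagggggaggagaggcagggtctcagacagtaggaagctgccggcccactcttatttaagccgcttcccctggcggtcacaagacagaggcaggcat
Glycam1: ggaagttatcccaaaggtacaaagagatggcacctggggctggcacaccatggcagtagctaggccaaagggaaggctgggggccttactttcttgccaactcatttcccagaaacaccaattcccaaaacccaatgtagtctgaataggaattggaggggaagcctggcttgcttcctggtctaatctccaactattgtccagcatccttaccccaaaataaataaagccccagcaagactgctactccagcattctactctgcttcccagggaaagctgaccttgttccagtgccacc
The Sele window held all 3 strings, with GGATATTCC at -145, TGACTCA at -73 and TATAAA at -49 from the start. Icam1 held GGAAATTCC at -153, which reads as a match on both strands, GGAAATACC at -84 and TATAAA at 13. Its RefSeq start lies 45 bases upstream of the other annotation used here. Selp held GGAAAGGCC at -14 and TGATTCA at -139. Madcam1 held GGAAAGCCC at -83 and GGAAAGTCC at -70, and the Glycam1 window held none of the 3 strings. The NF-kB-type string was thus found in genes of both patterns. A match is a description of the letters and not of a bound site, and no link between the strings and either pattern was tested. Icam2, and Vcam1, which also differed between the runs in venous-like cells, had no promoter sequence available.

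Selp was a venous gene in these cells. In venous-like cells its level ranged from 223 to 1849 CPM over the 8 libraries, with a median of 673. The median was 7.71 CPM in arterial-like, 7.98 in capillary-like and 6.84 in lymphatic-like cells. Venous-like cells were higher than each of the other 3 classes in 8 of 8 libraries, and the ranges overlapped only with capillary-like cells, through 1 library (adipose on chow, run A) with 312 CPM from 31 counts in 7 cells. The fitted difference was 6.75 ± 0.46 on the log2 scale against arterial-like cells (SE; adjusted p = 1.54e-12), 5.88 ± 0.45 against capillary-like cells (adjusted p = 2.33e-11) and 6.78 ± 0.47 against lymphatic-like cells (adjusted p = 6.31e-13; edgeR quasi-likelihood test with the library as a term). With every cell thinned to 1000 UMIs, the median share of venous-like cells with a Selp UMI was 36.1%, against 54.7% without thinning. In T cell-like cells the thinned median was 0%, at median depths of 1106 to 5249 UMIs per cell against 962 to 5074 in venous-like cells.

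Sele was also venous, with 1807 of its 2274 endothelial counts in venous-like cells, but its level spanned a wide range, from 0.966 to 505 CPM with a median of 142. Arterial-like cells held 5 counts in all, capillary-like cells 13 and lymphatic-like cells 26. Venous-like cells were higher in 8 of 8 libraries against each class, although the ranges overlapped through the low run B libraries. The fitted differences were 6.55 ± 0.28 (adjusted p = 6.42e-17, arterial-like), 4.88 ± 0.25 (adjusted p = 5.11e-15, capillary-like) and 5.85 ± 0.21 (adjusted p = 4.71e-19, lymphatic-like; edgeR); with so few counts in the other classes their size depends on the prior count of the fit. Between arterial-like and capillary-like cells the fitted difference of -1.67 ± 0.62 did not pass (edgeR adjusted p = 0.0684). A Sele UMI was found in a median of 8.73% of thinned venous-like cells and in 0% of thinned T cell-like, B cell-like, macrophage-like and fibroblast-like cells.

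Vcam1 was ordered venous-like, arterial-like and then capillary-like and lymphatic-like. Its median level was 353 CPM in venous-like cells (range 230 to 2037), 138 in arterial-like (47.5 to 972), 18.6 in capillary-like (5.01 to 50.4) and 16.0 in lymphatic-like cells (9.92 to 77.8). Venous-like exceeded arterial-like cells by 1.44 ± 0.24 on the log2 scale (adjusted p = 1.69e-05) and arterial-like exceeded capillary-like cells by 2.99 ± 0.30 (adjusted p = 4.8e-09, edgeR), each in 8 of 8 libraries. The 2 lower classes did not differ beyond their spread (0.24 ± 0.36, edgeR adjusted p = 0.625), and capillary-like cells were the higher in 3 of 8 libraries. Venous-like cells exceeded capillary-like cells by 4.43 ± 0.30 (adjusted p = 1.99e-12) and lymphatic-like cells by 4.67 ± 0.30 (adjusted p = 8.62e-14), and arterial-like exceeded lymphatic-like cells by 3.23 ± 0.30 (adjusted p = 1.75e-10, edgeR). Cluster 19, described further on, had 7 raised arterial markers but stayed unnamed and is not in the arterial-like class. It held 2783 of the 16605 endothelial Vcam1 counts, against 1479 in all arterial-like cells. The order thus holds for the named classes, and it was not tested with cluster 19 counted as arterial. Outside the endothelium, fibroblast-like cells had a median of 111 CPM and mural-like cells 79.2.

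Icam1 was found in every class. The median was 351 CPM in venous-like cells (range 140 to 1604), 110 in arterial-like (40.4 to 947), 105 in lymphatic-like (34.1 to 406) and 67.0 in capillary-like cells (18.5 to 363). Venous-like cells were higher in 8 of 8 libraries, by 1.64 ± 0.16 against arterial-like (adjusted p = 3.19e-09), 2.75 ± 0.18 against capillary-like (adjusted p = 1.05e-12) and 1.96 ± 0.17 against lymphatic-like cells (adjusted p = 7.05e-11, edgeR). Capillary-like cells were lowest, 1.11 ± 0.18 below arterial-like (adjusted p = 1.99e-05) and 0.79 ± 0.19 below lymphatic-like cells (edgeR, adjusted p = 0.000875). Arterial-like and lymphatic-like cells, each the higher in 4 of 8 libraries, did not differ beyond their spread. Mural-like cells of adipose had a median of 252 CPM and fibroblast-like cells 146, so Icam1 was not limited to endothelial cells in these libraries.

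Icam2 had another order. Its highest class was arterial-like, at 543 to 792 CPM with a median of 586, against 260 to 318 in venous-like, 263 to 345 in capillary-like and 118 to 290 in lymphatic-like cells. The arterial-like range did not overlap any of the others. Arterial-like exceeded venous-like cells by 1.04 (venous minus arterial -1.04 ± 0.13, adjusted p = 1.11e-07), capillary-like cells by 1.06 ± 0.13 (adjusted p = 2.15e-07) and lymphatic-like cells by 1.76 ± 0.13 (adjusted p = 1.11e-12, edgeR). Lymphatic-like cells were lowest, 0.72 ± 0.13 below venous-like (adjusted p = 2.61e-05) and 0.71 ± 0.13 below capillary-like cells (adjusted p = 4.69e-05). Venous-like and capillary-like cells did not differ beyond their spread (edgeR adjusted p = 0.964, venous higher in 3 of 8 libraries). Levels were 16.1 to 37.1 CPM at the median in T cell-like, B cell-like and macrophage-like cells, 10.5 in fibroblast-like and 4.11 in mural-like cells.

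Across the 6 genes that passed the filter on low counts, 6 were called between venous-like and arterial-like cells, 5 between venous-like and capillary-like, 6 between venous-like and lymphatic-like, 3 between arterial-like and capillary-like, 2 between arterial-like and lymphatic-like and 2 between capillary-like and lymphatic-like cells. Of all 8815 genes tested, 28.7%, 29.7%, 40.4%, 20.7%, 44.6% and 44.6% were called in the same order. The classes were built from the other genes, so these shares describe the clustering. In the first 3 comparisons nearly all of the genes were called, and in the last 2 the share was near the background. Glycam1 is among those called for venous-like cells, but its fitted fold is not given since several libraries had no counts, and Madcam1 did not pass the filter. The plot by class shows the order of each gene.

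**Figure D1:**
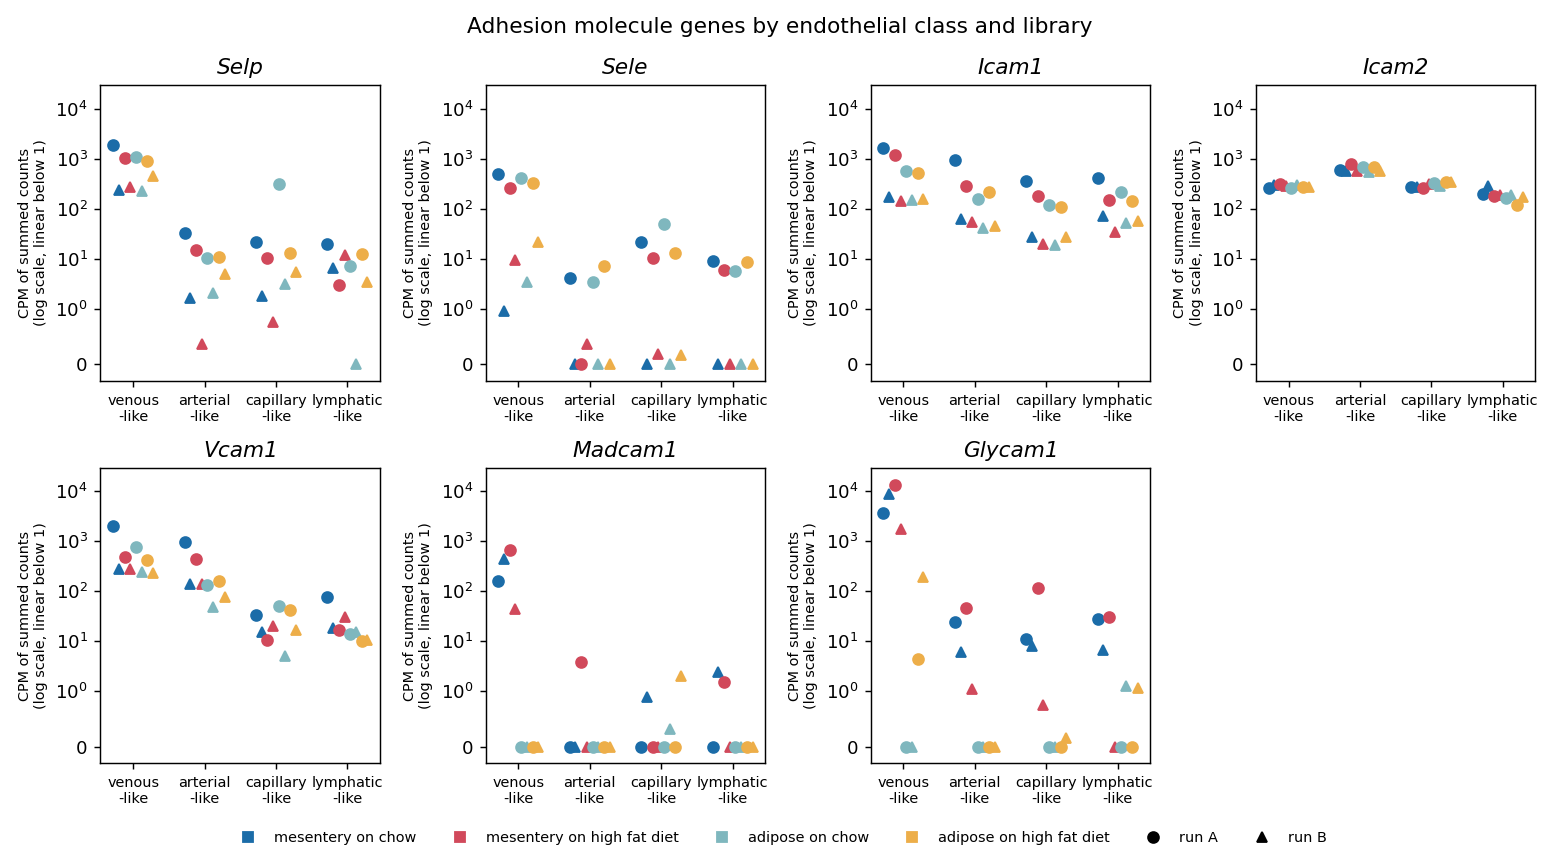
Level of each gene (CPM of summed counts, log scale that is linear below 1) in 4 endothelial classes, with 1 point per library, colour for tissue and diet and shape for run. Selp, Sele, Vcam1 and Icam1 are highest in venous-like cells and Icam2 in arterial-like cells at 543 to 792 CPM. Run A circles sit above run B triangles for Icam1 in each class, and for Selp and Sele in venous-like and capillary-like cells.

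Genes of the wider pathway were compared in the same fits, in which 28.7% of all genes were called between venous-like and arterial-like and 40.4% between venous-like and lymphatic-like cells. Of 12 cytokine receptor and NF-kB genes, 8 were higher and 1 lower in venous-like than in arterial-like cells (median log2 difference 0.65, against 0.01 over all genes), and 11 were higher and 0 lower than in lymphatic-like cells (median 1.28 against -0.01). The interleukin-1 receptor Il1r1 was 2.15 ± 0.20 above arterial-like cells (adjusted p = 5.1e-10), but it is also one of the markers that named the venous class. The TNF receptor Tnfrsf1a was 0.82 ± 0.11 higher (adjusted p = 3.73e-07), and the NF-kB subunit Rela was lower (-0.35 ± 0.13, adjusted p = 0.0483, edgeR). Of 10 genes for selectin ligands and the enzymes that make them, 6 were tested, with 4 higher and 1 lower against arterial-like cells (median 1.08). The sulfotransferase Chst2 was 3.94 ± 0.38 higher (adjusted p = 1.39e-09), the sialomucin Cd34 1.59 ± 0.19 higher (adjusted p = 7.13e-08), and the related Podxl was lower at -2.13 ± 0.21 (adjusted p = 1.59e-09, edgeR). Among 8 docking structure and Weibel-Palade body genes, 7 were tested. Rab27a, which serves the granules that store P-selectin, was 2.51 ± 0.22 higher in venous-like than in arterial-like cells (adjusted p = 2.19e-10), and the linker Ezr was lower (-1.38 ± 0.19, adjusted p = 7.72e-07, edgeR). Junction genes were split, 3 higher and 3 lower of 11 tested.

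In every group, Selp, Sele, Icam1 and Vcam1 of venous-like cells differed between the runs. In venous-like cells Selp was 1849 CPM in run A and 241 in run B in mesentery on chow, 1020 and 270 in mesentery on HFD, 1068 and 223 in adipose on chow, and 886 and 460 in adipose on HFD. Every run A library was above every run B library. Sele stood at 505, 263, 415 and 330 CPM in the 4 run A libraries in the same order of groups, and at 0.966, 9.63, 3.42 and 21.8 in those of run B. Its runs were thus further apart, with a ratio of medians of 57.2.

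Icam1 in venous-like cells was 1604, 1178, 564 and 526 CPM in run A and 176, 140, 151 and 157 in run B. Vcam1 was 2037, 488, 753 and 430 CPM in run A and 275, 274, 246 and 230 in run B. For both genes the runs did not overlap either. Icam2, in contrast, stood at 260, 318, 261 and 278 CPM in run A and 303, 284, 293 and 273 in run B, and its runs overlapped with a ratio of medians of 0.933. Lymphatic-like cells did not follow for each gene. Their Vcam1 was higher in run A in 1 of 4 groups (ratio of medians 0.919), and their Selp overlapped between the runs. Icam1 was also higher in run A, without overlap, in macrophage-like, fibroblast-like and mural-like cells. The ratios of medians were 3.33, 3.70 and 5.62, with as few as 4 macrophage-like cells in a library.

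In the fit with 1 mean per group and the run as a term, added after the data were seen, run A exceeded run B in venous-like cells by 5.91 ± 0.51 for Sele (adjusted p = 4.01e-07), 2.26 ± 0.26 for Selp (adjusted p = 1.04e-05), 2.74 ± 0.25 for Icam1 (adjusted p = 7.99e-07) and 1.80 ± 0.28 for Vcam1 (adjusted p = 0.000226, edgeR), on the log2 scale. That is 4 of 7 genes, and 19.6% of all 10252 genes were called. In all endothelial cells the same 4 were called and higher in run A (Sele 6.59 ± 0.71, adjusted p = 0.000939; Selp 2.91 ± 0.43, adjusted p = 0.00299; Icam1 3.23 ± 0.20, adjusted p = 0.000104; Vcam1 2.20 ± 0.31, adjusted p = 0.00244), with 38.1% of 13588 genes called. In arterial-like cells all 5 tested genes were called, against 26.4% of 9171 genes. These were Icam1 2.84 ± 0.22 (adjusted p = 8.6e-12), Vcam1 1.96 ± 0.21 (adjusted p = 5.55e-09), Selp 2.98 ± 0.70 (adjusted p = 0.00159), Icam2 0.42 ± 0.15 (adjusted p = 0.0347) and Glycam1 (adjusted p = 0.00202, edgeR). Selp rested on 45 counts in all and Glycam1 on 32, of which 0 were in adipose, so no fold is given for Glycam1. Its level reached at most 45.7 CPM in arterial-like cells, against at most 423 in T cell-like cells. With single libraries left out the arterial-like count was 2 to 5, with 2 (Icam1 and Vcam1) without mesentery on HFD run B and 3 without mesentery on HFD run A, adipose on chow run B or adipose on HFD run B. Icam1 and Vcam1 were called in each of these fits.

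**Figure D2:**
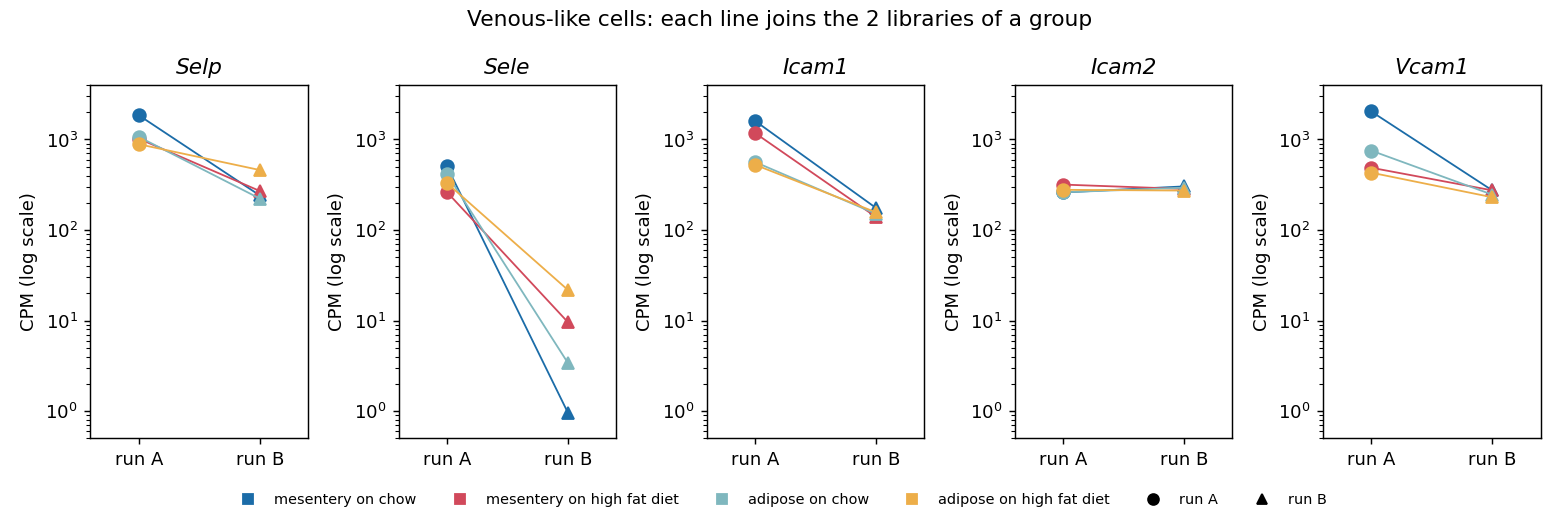
Level in venous-like cells (CPM, log scale) in run A and run B, each line joining the 2 libraries of a group. Selp, Sele, Icam1 and Vcam1 fall from run A to run B in all 4 groups, Sele to between 0.966 and 21.8 CPM, while the lines of Icam2 stay level.

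Some NF-kB pathway genes differed between the runs as well. In venous-like cells 7 of 12 cytokine receptor and NF-kB genes were higher in run A, 0 were lower and 5 did not pass, where 19.6% of all genes were called in either direction (median log2 difference 1.00, against -0.03 over all genes). The inhibitors induced by NF-kB were among them: Nfkbia by 3.20 ± 0.24 (adjusted p = 6.29e-08), Tnfaip3 by 3.22 ± 0.33 (adjusted p = 3.18e-06) and Birc3 by 1.99 ± 0.25 (adjusted p = 3.19e-05, edgeR). In arterial-like cells 6 were higher and 1, the TNF receptor Tnfrsf1b, was lower. Junction genes of venous-like cells went both ways, with 1 higher and 3 lower of 12 tested: Pvr by 2.53 ± 0.21 (adjusted p = 2.55e-07) higher, and F11r (-2.34 ± 0.20, adjusted p = 2.98e-07) and Cdh5, itself one of the endothelial markers (-0.98 ± 0.17, adjusted p = 0.000781, edgeR) lower. Software version, depth and mitochondrial share differed between the runs too, and their part in the difference was not tested.

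The difference was also counted per cell, by a share that rises with the detection of each gene alone and so is not separate evidence. With cells thinned to 1000 UMIs, 36.1 to 73.0% of venous-like cells of the run A libraries (median 46.2%) held UMIs of at least 2 of Selp, Sele, Icam1 and Vcam1, against 10.1 to 14.7% in run B (median 11.7%). In arterial-like cells it was 1.4 to 16.4% in run A and 0.5 to 1.4% in run B.

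One cluster with arterial markers had another pattern. Cluster 19, led by Klk10, Adh7 and Pi16 and left unnamed because of a fibroblast gene among its leading genes, held 16.8% of all endothelial Vcam1 counts. Its Vcam1 level was 1577 and 1112 CPM in runs A and B of mesentery on chow and 1144 and 1132 in mesentery on HFD. In adipose on chow it was 1128 and 690 CPM. Icam1 in the same cells was 1016 and 137 CPM in mesentery on chow and 423 and 96.1 in mesentery on HFD. So within this cluster Icam1 was far apart between the runs while Vcam1 was not, though the difference between the genes was not tested. The cluster counted 103 and 225 cells in mesentery on chow, and 3 to 26 in each other library.

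Diet was then compared within each tissue. No gene of the 7 was called between HFD and chow in mesentery or in adipose, in all endothelial, venous-like or arterial-like cells, by edgeR without the run in the model, where 0% of all genes were called. At an unadjusted p below 0.05 only Glycam1 appeared, in adipose in all endothelial and in venous-like cells. DESeq2 called 1 gene (Glycam1 in adipose, all endothelial cells, from 2 cells described further on) and limma-voom 0. When the run was added as a block, 0 of the 7 were called by edgeR too, and DESeq2, added after the data were seen, called 2, Icam1 and Vcam1 of all endothelial cells in mesentery. The share of all genes called was then 0% in mesentery and 0.0294% in adipose for all endothelial cells, 0.293% and 0.0975% for venous-like cells, and 0.785% and 0.327% for arterial-like cells. With n = 2 pools per group, p-values measure the spread between pools, and a difference that failed the test is not shown to be absent.

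The values behind this differed by run. In all endothelial cells of mesentery, Vcam1 was 1437 and 205 CPM on chow (runs A and B) and 225 and 96.1 on HFD, lower on HFD within both runs. The blocked fit gave -1.89 ± 0.43 (unadjusted p = 0.00304, adjusted p = 0.204). Icam1 was 1168 and 97.0 CPM on chow and 376 and 45.1 on HFD (-1.42 ± 0.26, adjusted p = 0.134), and Selp was 1084 and 67.1 on chow and 193 and 43.3 on HFD (-1.69 ± 0.58, adjusted p = 0.429, all edgeR with the run as a block). Without the run A library of mesentery on chow the blocked values were -1.34 for Vcam1, -1.03 for Icam1 and -0.72 for Selp. In adipose, each of these 3 genes was lower on HFD in run A and higher in run B, but in run B the higher level held only for Selp (1.85 times) without the mixed clusters 9, 11, 12 and 20, where Icam1 was 0.959 and Vcam1 0.983 times its chow level. Clusters 9, 11 and 20, with adipocyte genes among their leading genes, made up 12.1, 12.05 and 4.98% of the endothelial cells of adipose on chow run B and 0.0294, 0.0587 and 0.235% on HFD run B. These sums join the mix of cells and the RNA per cell, and the part of each was not tested. Venous-like cells were 46.8 and 19.7% of endothelial cells in mesentery on chow and 11.9 and 13.4% on HFD. In adipose they were 7.27, 5.1, 12.2 and 10.9%. Clusters 19 and 15, described further on, held 16.8 and 8.09% of all endothelial Vcam1 counts. In mesentery cluster 19 was 7.97 and 5.59% of endothelial cells on chow and 3.76 and 0.843% on HFD. Cluster 15 was 8.44 and 10.7% on chow and 4.49 and 0.0766% on HFD. Levels within venous-like and arterial-like cells follow.

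Within venous-like cells of mesentery, Vcam1 on HFD was 0.239 times its chow level in run A and 0.998 times in run B, so the lower value (blocked fit -1.09 ± 0.38, edgeR adjusted p = 0.493) rested on run A. Without the run A library of mesentery on chow the blocked value was -0.11 ± 0.29. For arterial-like Icam1 the ratio was 0.306 in run A and 0.881 in run B (-1.05 ± 0.29, adjusted p = 0.108), and for arterial-like Vcam1 0.463 and 1.00 (-0.60 ± 0.26, adjusted p = 0.767, edgeR with the run as a block). Without the same library the blocked values were -0.11 ± 0.29 for Icam1 and 0.11 ± 0.27 for Vcam1, so the lower levels of both genes on HFD came from run A. Sele in venous-like cells went opposite ways, 0.52 times in run A and 9.97 times in run B, the latter from 0.966 to 9.63 CPM. Icam2 stayed between 0.938 and 1.22 times in mesentery and between 0.93 and 1.07 times in adipose.

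The diet effect in mesentery was also tested against that in adipose as an interaction. No gene of the 7 was called in any of the 3 populations by edgeR without or with the run as a block, nor by DESeq2 or limma-voom. At an unadjusted p below 0.05 without the block there was 1 gene each in all endothelial and in venous-like cells (Glycam1) and 0 in arterial-like cells. Of all genes 0% were called without the block, and 0%, 0.039% and 0.0218% with it. The blocked values were -1.49 ± 0.36 for Icam1 (adjusted p = 0.905), -1.89 ± 0.59 for Vcam1 and -2.26 ± 0.79 for Selp (both adjusted p = 1) in all endothelial cells. In arterial-like cells they were -1.32 ± 0.42 for Icam1 (adjusted p = 0.9) and -1.18 ± 0.39 for Vcam1 (adjusted p = 0.982, edgeR). Without the run A library of mesentery on chow they were -0.39 for Icam1 and -0.48 for Vcam1 in arterial-like cells.

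The tissues were compared on each diet. On chow, without the block, edgeR called 0 of the 7 in any population, with 0% of all genes called in all endothelial and arterial-like cells and 0.00975% in venous-like cells. Madcam1 and Glycam1 had an unadjusted p below 0.05 in all endothelial and venous-like cells, and Vcam1 in arterial-like cells. With the run as a block 2 were called in venous-like cells (Madcam1 and Glycam1, against 1.9% of all genes), 2 in arterial-like cells (Vcam1 and Icam1, against 0.949%) and 0 in all endothelial cells (against 0.221%). On HFD 0 were called without the block (0% of all genes; Madcam1 and Glycam1 below 0.05 unadjusted in all endothelial and venous-like cells, Glycam1 in arterial-like cells). With it, 1 was called in venous-like cells (Glycam1, against 0.117%), 0 in arterial-like cells (against 0.131%) and 0 in all endothelial cells (against 0%). DESeq2 without the block called Glycam1 and Madcam1 in all endothelial cells on both diets and Glycam1 in venous-like cells on chow, and limma-voom called 0.

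Arterial-like Vcam1 was higher in mesentery. On chow it was 972 and 138 CPM in mesentery (runs A and B) and 132 and 47.5 in adipose. On HFD it was 449 and 138 CPM in mesentery and 161 and 76.1 in adipose. Mesentery was the higher within each run on both diets, and the tissues overlapped on HFD and not on chow. The fitted difference on chow was 2.69 ± 1.06 without the block (unadjusted p = 0.0348, adjusted p = 1) and 2.22 ± 0.28 with it (adjusted p = 1.18e-05, edgeR). With the block it stayed called when each library was left out in turn, at 1.54 to 2.93. On HFD the blocked value was 1.04 ± 0.27 (adjusted p = 0.2, edgeR).

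Arterial-like cells came from 2 clusters, so Vcam1 was set out in each. In cluster 8, led by Gkn3, it was 1518 and 252 CPM in mesentery against 223 and 118 in adipose on chow, and 659 and 479 against 236 and 295 on HFD. In cluster 3, led by Col8a1, it was 296 and 49.0 against 51.8 and 17.4 on chow, and 188 and 29.9 against 90.0 and 17.03 on HFD. Mesentery was higher in all 8 pairs of the same run and diet, so the direction was the same within each cluster. Cluster 8 held 30 to 241 cells per library and cluster 3 held 45 to 471. Admitting cells with up to 20% mitochondrial counts lowered the unblocked value to 1.55.

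Icam1 in arterial-like cells was 947 and 61.1 CPM in mesentery and 159 and 40.4 in adipose on chow, a blocked difference of 1.62 ± 0.30 (adjusted p = 0.00216, edgeR). The ratio of mesentery to adipose was 5.94 in run A and 1.51 in run B. Without the run A library of mesentery on chow the blocked value was 0.71 ± 0.29 and no longer called (adjusted p = 0.424). Other genes of the fixed lists called in the same comparison were Tspan8, a tetraspanin (3.27 ± 0.42, adjusted p = 1.33e-05), and Enpp2, which makes lysophosphatidic acid (2.12 ± 0.36, adjusted p = 0.00078, edgeR). Adipocyte markers summed to 0 to 647 CPM in arterial-like cells of mesentery and 10.7 to 1578 in those of adipose, and their part was not tested.

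**Figure D3:**
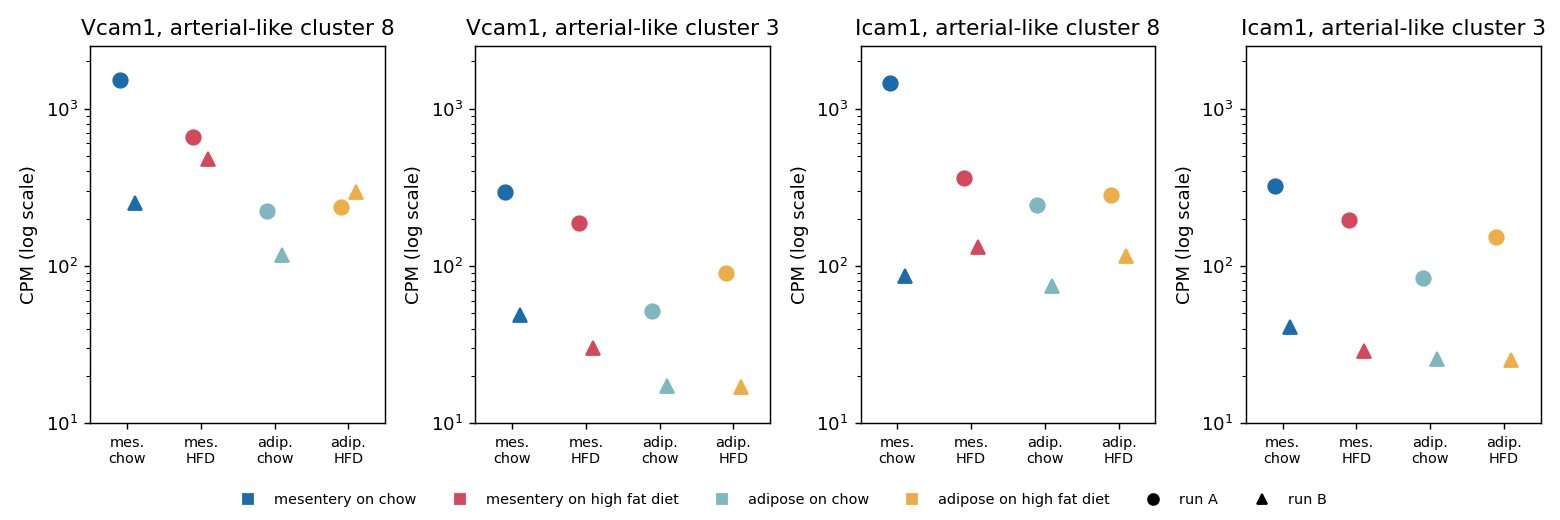
Vcam1 and Icam1 (CPM, log scale) in the 2 arterial-like clusters by tissue and diet, with circles for run A and triangles for run B. For Vcam1 each mesentery point lies above the adipose point of the same run and diet, for example 1518 against 223 CPM in cluster 8 of run A on chow.

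Selp, Icam1 and Vcam1 of venous-like cells showed no tissue difference that passed the test. On chow the blocked values were 0.88 ± 0.33 for Icam1 (adjusted p = 0.311) and 0.96 ± 0.38 for Vcam1 (adjusted p = 0.345, edgeR). Vcam1 was called when mesentery on chow run B or mesentery on HFD run A was left out, Icam1 without the latter and Sele without mesentery on chow run A. The tissues drew their venous-like cells from different clusters: cluster 7, led by Plac8 and Adgrg6, held 514 of 604 in mesentery on chow run A, and cluster 6, led by Ackr1, held 97 of 99 in adipose on chow run A. Within cluster 6 alone, Icam1 in run A was 1553 and 1105 CPM in mesentery on chow and HFD and 570 and 547 in adipose, whereas in run B it was 144 and 142 in mesentery and 157 and 150 in adipose. Vcam1 in cluster 6 was 1869 and 732 CPM in mesentery and 757 and 471 in adipose in run A, and 350 and 265 against 226 and 225 in run B. The tissues thus stood apart for Icam1 in run A and not in run B. In all endothelial cells, where the classes are mixed, the blocked values on chow were 2.38 ± 0.43 for Vcam1 (adjusted p = 0.0844), 1.49 ± 0.26 for Icam1 (adjusted p = 0.0809) and 1.77 ± 0.57 for Selp (adjusted p = 0.29, edgeR).

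Adipose held a cluster of its own in which all 4 inducible genes were found. Cluster 17, with Ptn and Slco1a4 among its leading genes, held 45 to 184 cells per adipose library and at most 5 in any mesentery library. It carried 5 raised venous markers but stayed unnamed because of a fibroblast gene, Dcn, among its leading genes. In adipose on chow (runs A and B) Selp was 1163 and 326 CPM, Icam1 1234 and 348, Vcam1 1016 and 395 and Sele 664 and 22.1. On HFD Selp was 636 and 368, Icam1 954 and 277, Vcam1 665 and 210 and Sele 344 and 14.3. It held 9.57% of all endothelial Selp counts and 15.9% of the Sele counts. Run A was again above run B for each gene.

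Madcam1 and Glycam1 were found almost only in mesentery. In venous-like cells Glycam1 was 3679 and 8914 CPM in mesentery on chow (runs A and B) and 13660 and 1786 on HFD. In adipose it was 0 and 0 on chow and 4.35 and 191 on HFD. Madcam1 was 163 and 442 CPM in mesentery on chow, 658 and 44.8 on HFD and 0 in all 4 adipose libraries. The tissues did not overlap for Madcam1 or Glycam1.

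Against the limit of 3 counts per adipose library, Madcam1 was at least 9.14-fold higher in mesentery on chow in run A and at least 216-fold in run B, and on HFD at least 50.5-fold and 28.7-fold. For Glycam1 on chow the bounds were 207-fold in run A and 4345-fold in run B. On HFD the ratio was 9.34 in run B. The adipose library of run A held 1 Glycam1 count there. With the run as a block both genes passed the test on chow (Glycam1 adjusted p = 0.000502, Madcam1 adjusted p = 0.0079), and on HFD Glycam1 passed (adjusted p = 0.0339) and Madcam1 did not (adjusted p = 0.0826, edgeR). Glycam1 was called with each library left out in turn. Madcam1 was not called on chow without adipose on chow run B, and on HFD it was called in each of these fits but that without adipose on HFD run B. Without the block neither passed on chow (Glycam1 adjusted p = 0.697, Madcam1 adjusted p = 0.778).

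The counts came from 2 small clusters. Cluster 29, with 125 cells and venous markers, held 83.6% of all endothelial Glycam1 counts and 72.3% of the Madcam1 counts, and cluster 15, with 573 cells, held 15.7% and 23.9%. Together they held 99.2% (67729 of 68241) and 96.3% (3436 of 3569). Cluster 29 was picked out as the cluster with the highest Chst4 and Fut7, enzymes known to build L-selectin ligands in high endothelial venules. Its levels of both are thus no separate finding. It held 128 counts of the sulfotransferase Chst4 and 299 of the fucosyltransferase Fut7 in mesentery on chow run B. Its Prox1 and Lyve1 counts there, of genes that mark lymphatic endothelium, were 2 and 139.

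Cluster 15, led by the scavenger receptor Marco, was of another kind. In the same library it held 0 Chst4 and 6 Fut7 counts but 1363 Prox1, 5571 Lyve1 and 547 Flt4 counts. For every 1000 Glycam1 counts it had 56.0, 90.2 and 54.8 Madcam1 counts in mesentery on chow A, chow B and HFD A, where cluster 29 had 44.0, 48.5 and 46.7, so the clusters were close in 2 of these 3 libraries. Chst4, by which cluster 29 was picked, was at 0 per 1000 Glycam1 counts in cluster 15 in these libraries. In cluster 29 it was at 3.47 to 6.59. Vcam1 was present in cluster 15 at 579 and 296 CPM on chow, while Selp was at 3.80 and 1.95.

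Cluster 29 made up 2.94% of endothelial cells in mesentery on chow run A (38 cells, exact binomial interval 2.09 to 4.02%), 1.47% in run B (59 cells, 1.12 to 1.89%), and 2.46% (17 cells, 1.44 to 3.91%) and 0.307% (8 cells, 0.132 to 0.603%) on HFD. Cluster 15 made up 8.44% and 10.7% on chow and 4.49% and 0.0766% on HFD, and 0 of 1016 to 4878 endothelial cells in adipose, which allows a share of up to 0.295% in the smallest library by a limit of 3 cells. Intervals and limits cover counting error only. The shares on HFD were lower than on chow in both runs, more so in run B, with no test of the shares. Inside cluster 29 Glycam1 was 28330 and 48730 CPM on chow and 32910 and 46410 on HFD, so the diets overlapped.

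**Figure D4:**
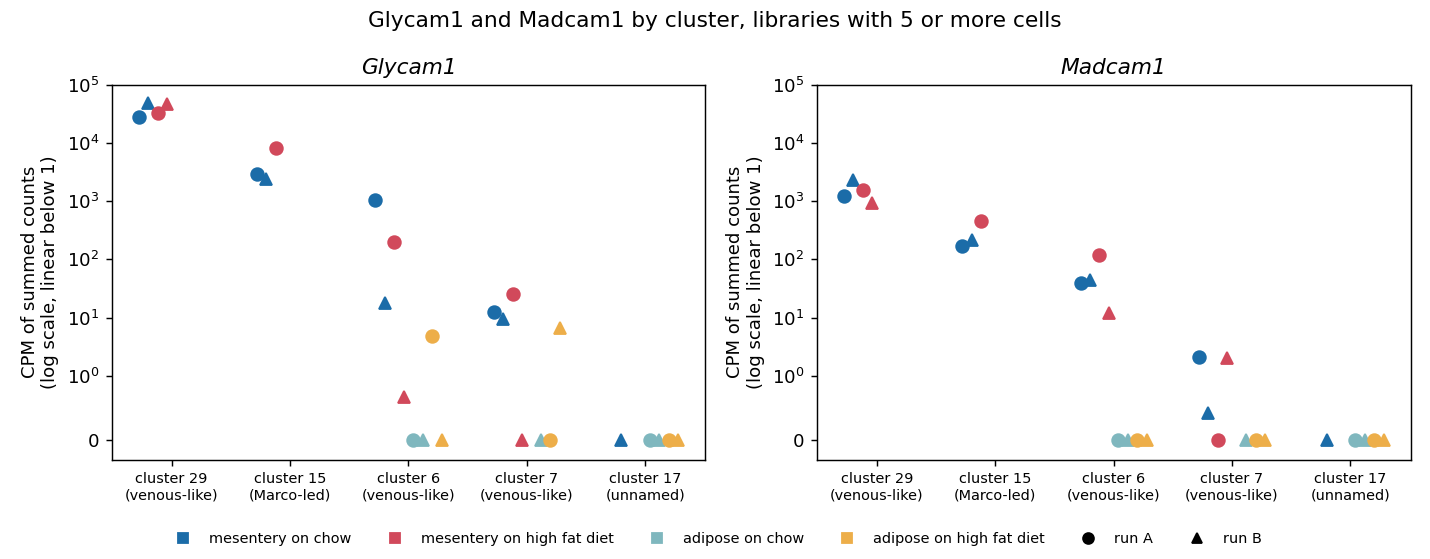
Glycam1 and Madcam1 (CPM of summed counts, log scale that is linear below 1) in 5 endothelial clusters, for libraries with 5 or more cells, with colour for tissue and diet and shape for run. Cluster 29 lies at 28330 CPM of Glycam1 and above in all 4 mesentery libraries, cluster 15 below it, and the adipose points of clusters 6, 7 and 17 lie at or near 0.

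Outside clusters 29 and 15 the counts were low and uneven. Without cluster 29, venous-like cells of mesentery held 192, 40, 19 and 1 Glycam1 counts (chow A and B, HFD A and B), or 74.9, 11.8, 81.0 and 0.501 CPM, against 0, 0, 1 and 1 counts in adipose. T cell-like cells of the same mesentery libraries had 68.2, 5.10, 423 and 0 CPM, so these remaining venous-like cells were not clearly above a cell type that should lack the gene. Cluster 6 alone had 1044, 17.4, 200 and 0.664 CPM, in mesentery on chow run A well above the T cell-like cells of that library. Cells with 10 or more Glycam1 UMIs outside the 2 clusters numbered 3, 1, 2 and 0. Whether free RNA contributes to these counts was not tested. For Madcam1 the remaining venous-like cells had 4.29, 13.0, 38.4 and 9.51 CPM in mesentery and 0 counts in adipose. T cell-like cells had 2.73, 0, 19.7 and 0 CPM, where 3 counts would be 7.65 CPM on chow run B and 10.4 on HFD run B. The remaining venous-like cells lay above that limit on chow run B and below it on HFD run B. In the run A libraries they were above the T cell-like cells, which held 1 and 6 Madcam1 counts. Cells with 2 or more Madcam1 UMIs outside the 2 clusters numbered 2, 11, 4 and 3 in mesentery and 0, 3, 0 and 1 in adipose. In cluster 6 Madcam1 was 38.7 and 44.1 CPM on chow and 120 and 12.0 on HFD. The 367 Glycam1 counts of cluster 29 in adipose on HFD run B came from 2 cells with 0 Madcam1, Chst4 and Fut7 counts.

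Genes of the high endothelial venule list were compared between the tissues too. In venous-like cells on chow, 5 of 7 were higher in mesentery with the run as a block (median log2 difference 3.83, against 0.03 over all genes, of which 1.9% were called): Ccl21a, Enpp2, Gcnt1, Fut7 and Chst4. Without the block edgeR called 0 of the 7 (median 3.65), with 5 at an unadjusted p below 0.05. Gcnt1, which branches the glycans of selectin ligands, was 3.16 ± 0.67 higher (adjusted p = 0.0184) and Enpp2 3.83 ± 0.79 (adjusted p = 0.0163, edgeR). Fut7 (adjusted p = 0.0331) and Chst4 (adjusted p = 0.0428, edgeR) had no counts in adipose venous-like cells. In mesentery on chow, cluster 29, which was picked by these genes, held 146 and 299 Fut7 counts (runs A and B) and 70 and 128 Chst4 counts. The other venous-like cells there held 3 and 2 Fut7 counts and 1 and 0 Chst4 counts. For Fut7 and Chst4 the tissue difference thus rested on cluster 29. Ccl21a is also a lymphatic marker, and its near-identical gene copies make its count uncertain, and 5 of the 7 genes are in the selectin ligand list too. Chst2 (-0.08 ± 0.39) and B3gnt3 (-0.40 ± 0.33) did not pass (edgeR adjusted p = 0.999 and 0.913). B cell-like cells, which numbered 58, 118, 140 and 44 in mesentery and 0 to 4 in adipose libraries, moved with the tissue as well. Summed B cell markers in venous-like cells were 4.81 to 122 CPM in mesentery and 0 to 8.89 in adipose, T cell markers 0.963 to 8.85 and 1.37 to 13.0, and their part was not tested.

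Cells of cluster 29 carried the other adhesion molecules too. Selp there was 723 and 67.4 CPM in mesentery on chow and 774 and 62.5 on HFD, Icam1 1136 and 120 and 1149 and 125, Sele 203 and 1.32 and 266 and 0, and Vcam1 307 and 93.8 and 193 and 188. Run A lay above run B for all 4 genes on both diets, as it did in the other venous-like clusters, and the diets differed little within a run for Selp and Icam1. Glycam1 did not share this: its levels were lower in run A than in run B.

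Similarity was described over the 32 sums of 4 classes and 8 libraries, as Pearson's r of log2(CPM + 1) over 8469 genes. These sums share libraries and depth, so no p is given. Closest to Madcam1 were Fut7 (r = 0.966), Glycam1 (0.856) and Plac8 (0.832), and closest to Glycam1 were Madcam1, Fut7 (0.833) and Dclk1 (0.775). Vcam1 was closest to Rfk (0.887), Myof (0.884) and Vwf (0.880), Icam2 to Abr (0.947), Tapbp (0.921) and Itpr3 (0.896), and Selp to Plxnb2 (0.881), Ptgs1 (0.872) and Gpx1 (0.848). For Sele and Icam1 the closest genes included housekeeping genes of translation, Eef1b2 (0.881) and Rplp0 (0.877) beside Gpx1 (0.884) for Sele and Rpl4 (0.920) and Eef1a1 (0.904) beside Casp4 (0.917) for Icam1. Among the genes themselves Selp and Sele (0.826) and Sele and Icam1 (0.794) were close, while Icam2 reached at most 0.449, with Vcam1.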

How the data were processed

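The authors deposited filtered tables of raw UMI counts per gene and cell barcode for 8 libraries. Per the file headers, run A carries software version 3.0.2 and run B version 5.0.0. The submitters' processing notes name mm10 and Seurat 4.3.0. An integrated object named in the labels was not analysed here and details of the sort gate were not used. Of 27944 barcodes, the 23970 that had 500 or more UMIs, 300 or more genes and at most 10% mitochondrial counts were kept. Scrublet's own threshold marked 40 cells (0.17%), so the highest scores at a rate of 0.8% per 1000 cells were removed instead (763 cells, 3.18%). Cells were clustered (scanpy 1.11.5, leidenalg 0.10.2, resolution 1) on 2000 variable genes and 30 components, after a Harmony-type correction for the run. The clustering left out 60 genes, the 7 members and every gene of the trafficking lists. A cluster was named from at least 3 markers raised 1.5-fold with a mean log2 fold of at least 0.4, a limit lowered after the clusters were seen. Names are rebuilt and may differ from the study's.

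Counts were summed per library and class (at least 20 cells for class comparisons) and tested with edgeR 4.0.16 (R 4.3.3) by its quasi-likelihood test, with TMM, filterByExpr and Benjamini-Hochberg adjustment over all genes at 0.05. Diet, tissue and interaction used 1 mean per group. Runs pair the libraries because the labels say that the experiment was repeated. Deviations from the group means correlated within runs at 0.58 to 0.73 (all endothelial cells), 0.41 to 0.61 (venous-like) and 0.49 to 0.58 (arterial-like cells) over 6 pairs each. DESeq2 1.42.0 and limma 3.58.1 were alternatives. On simulated counts of 10252 genes for diet in mesentery, venous-like cells, the test recovered 100 of 100 genes changed 4-fold and 2 of 100 changed 1.5-fold, with 5 false calls. The simulated counts held no difference between the runs, whereas 19.6% of real genes were called between them in venous-like cells. These rates therefore do not carry over to the real fits.

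The 7 genes and the lists were chosen with earlier results of these data known. A fitted change of a member is printed where its unadjusted p is under 0.05 without or with the run as a block, and of each list up to 4 called genes by smallest p. Values printed outside this rule (Rela, Podxl and Tnfrsf1b as the lower genes of a list, fitted values beside a class that did not differ, Chst2 and B3gnt3 between tissues) and clusters 17 and 19 were chosen after their values were seen. Gene positions are from GENCODE on mm10.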

Additional observations from a re-analysis of the deposited data

How the results depend on the processing

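The counts of the 7 genes called between cell classes stayed within 1.5 times under each other tool, filter and left-out library tried. Diet, tissue and interaction called 0 without the run, and these counts moved with the model. With the replicate block, which pairs the libraries of a run, edgeR called 2 in venous-like and 2 in arterial-like cells for tissue on chow and 1 in venous-like cells for tissue on HFD, and 0 elsewhere. DESeq2 without the block called 1 for diet in adipose, 2 for tissue on chow and 2 for tissue on HFD in all endothelial cells, and 1 for tissue on chow in venous-like cells. With the block, DESeq2 called 2 for diet in mesentery and 4 for tissue on chow in all endothelial cells, and 1 and 2 for tissue on chow in venous-like and arterial-like cells. Limma-voom with the block called 2 in all endothelial and 3 in arterial-like cells for tissue on chow. Without a filter on low counts, venous-like cells gave 1 for diet in adipose, 2 for each tissue comparison and 1 for the interaction, and arterial-like cells gave 3 for tissue on chow and 1 on HFD. With the block, tissue on chow gave 1 in all endothelial cells without the mixed clusters, 1 without clusters 15 and 29, and 1 in venous-like cells without cluster 29. These fits of DESeq2 and limma with the block, and those without clusters, were added after the data were seen.

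With single libraries left out, with or without the block, all endothelial cells gave 0 to 1 for diet in mesentery, 0 to 3 for tissue on chow and 0 to 1 for tissue on HFD. Venous-like cells gave 0 to 2 for diet in mesentery, 0 to 1 in adipose, 0 to 4 for tissue on chow, 0 to 2 on HFD and 0 to 1 for the interaction. Arterial-like cells gave 0 to 1 for diet in mesentery, 0 to 3 for tissue on chow, 0 to 1 on HFD, 0 to 2 for the interaction and 2 to 5 for run A minus run B. A group left with 1 library was assumed to vary like the others.

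Directions turned without the run A library of mesentery on chow, which by construction sets a group of run B alone against groups of both runs unless the block is used. The ranges of log2 values over left-out libraries, whose other end came from leaving out another library, were as follows. In all endothelial cells, diet in mesentery gave -3.86 to 0.87 for Selp and -3.93 to 1.18 for Icam1, and tissue on chow gave -1.28 to 4.60 for Selp and -1.19 to 4.11 for Icam1. The interaction there gave -4.84 to 1.04 for Selp, -4.07 to 0.05 for Vcam1 and -3.92 to 1.38 for Icam1, with Icam1 also at 0.38 without the run A library of adipose on HFD. In venous-like cells Vcam1 gave -2.46 to 0.61 for diet in mesentery and -0.94 to 2.47 for tissue on chow, and Icam1 gave -1.10 to 2.80 for tissue on chow. In arterial-like cells diet in mesentery gave -2.06 to 1.12 for Vcam1 and -3.28 to 1.49 for Icam1, tissue on chow gave -0.70 to 3.73 for Icam1, and the interaction gave -2.51 to 0.68 for Vcam1 and -3.69 to 1.09 for Icam1. With the block 2 values turned without that library: Vcam1 of venous-like cells for tissue on chow (-0.05) and of arterial-like cells for diet in mesentery (0.11).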
